A study of Mus musculus with 9 samples.

Results

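The citrate cycle enzyme genes described here are Cs, Idh2, Idh3a, Idh3b, Ogdh, Suclg1, Sucla2, Fh1 and Mdh2, a set that holds part of the mitochondrial cycle and no subunit of succinate dehydrogenase. They were taken by symbol, 1 row for each of the 9 names, from a deposited table of 32593 genes measured by RNA-seq in mouse kidney. Each of 3 groups had 3 libraries, and every mouse received AngII, the pressor peptide angiotensin II. The CDH16KO-AngII group was labelled CDH16 Cre+/Tmemfl/fl, a floxed Tmem allele with Cre. The GRPR-AngII group was labelled CDH16 Cre+/GRPRfl/fl, a floxed GRPR allele with the same Cre. The AngII group was labelled Tmemfl/fl, the floxed Tmem allele with no Cre named. Cdh16 encodes a cadherin of kidney tubule epithelium, so cells outside the tubules would keep their alleles in whole-kidney RNA. The labels give no age, sex, dose or duration. They do not say that libraries came from separate animals, so the spread behind every p-value here is that between libraries and may be technical.

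The citrate cycle oxidises acetyl-CoA in the mitochondrial matrix and passes the electrons to the respiratory chain as NADH and, at succinate dehydrogenase, through bound FAD. In the kidney, proximal tubule and thick ascending limb cells are rich in mitochondria and depend on oxidative metabolism for sodium transport. The cycle enzymes are encoded in the nucleus and imported. Several are complexes whose subunits come from separate genes, and in those the amounts of partner transcripts can be set against each other within a library.

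Library totals were 40731748 to 60449117 counts, and no member had fewer than 2183 counts in any library. The share of counts from mitochondria-coded genes was 16.1% to 26.4% in CDH16KO-AngII libraries, 19.1% to 24.6% in GRPR-AngII and 17.2% to 21.5% in AngII. The labelled tissue was checked with marker genes. The summed level of 12 proximal tubule markers ranged from 10575 to 14048 CPM (counts scaled to library size with TMM factors) in CDH16KO-AngII kidneys, from 13867 to 15929 in GRPR-AngII kidneys and from 13822 to 15456 in AngII kidneys. Markers of the thick ascending limb and distal convoluted tubule summed to 3877 CPM or more in every library, while 4 adipocyte markers stood at 0.450 CPM or less in sum. In whole-kidney RNA, fewer cells of a type and less RNA per cell cannot be told apart.

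Promoter sequences are shown for 3 of the 9 genes, because these turn up in the comparisons of partner subunits below. Among the 9, Sucla2 and Suclg1 had the widest spread over libraries. Idh3b was the only gene of the 9 with separate ranges in 1 comparison in both CPM and FPKM. RefSeq on GRCm38.p6 gave a promoter for 8 of the 9 genes, each running from 250 bases before to 50 bases after the start. Capitals mark matches to the searched motifs, read on both strands. The Sucla2 window lies on chr14:73552536-73552835, plus strand, the Suclg1 window on chr6:73248255-73248554, plus strand, and the Idh3b window on chr2:130284402-130284701, minus strand.
Sucla2: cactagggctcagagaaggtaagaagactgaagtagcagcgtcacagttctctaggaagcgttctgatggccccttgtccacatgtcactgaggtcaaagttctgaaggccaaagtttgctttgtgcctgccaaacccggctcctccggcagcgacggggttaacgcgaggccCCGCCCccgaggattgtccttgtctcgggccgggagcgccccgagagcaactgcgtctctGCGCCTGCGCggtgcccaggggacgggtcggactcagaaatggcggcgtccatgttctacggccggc
Suclg1: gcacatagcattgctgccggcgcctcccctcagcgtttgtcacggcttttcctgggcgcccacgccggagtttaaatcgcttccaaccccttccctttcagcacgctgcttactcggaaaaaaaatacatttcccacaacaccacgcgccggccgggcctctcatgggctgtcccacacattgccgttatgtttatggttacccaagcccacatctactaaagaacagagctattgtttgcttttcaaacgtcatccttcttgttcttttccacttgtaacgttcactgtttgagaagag
Idh3b: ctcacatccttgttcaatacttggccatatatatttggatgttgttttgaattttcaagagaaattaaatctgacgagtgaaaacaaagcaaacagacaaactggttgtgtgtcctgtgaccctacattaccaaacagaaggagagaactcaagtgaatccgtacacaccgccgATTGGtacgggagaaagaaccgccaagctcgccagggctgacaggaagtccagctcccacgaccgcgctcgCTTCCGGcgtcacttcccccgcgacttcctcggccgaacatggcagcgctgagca
The annotated RefSeq start of each of the 3 lies inside the deposited gene interval, not at its first base. Only the Sucla2 window lies wholly inside the interval of its gene. The Sucla2 window held 1 match to the NRF1 motif, which was in 4.63% of the 32544 promoters, and 1 match to the GC box GGGCGG, which was in 35.9%. The Idh3b window held 1 match to the CCAAT box CCAAT (37.4% of promoters) and 1 to the ETS motif CCGGAAG (8.91%). The Suclg1 window held none of the searched letters, and the ERR motif TCAAGGTCA (0.412% of promoters) was in no promoter of the 8 genes. Over the 8 genes with a promoter, 5 had a CCAAT box and 6 a GC box in at least 1 window. No motif searched overlapped another in the 3 windows shown, and a match is a description of letters, not of binding.

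No citrate cycle enzyme gene was called in any of the 3 comparisons. A call needed an adjusted p under 0.05 in edgeR's quasi-likelihood test, with Benjamini-Hochberg adjustment over the 12507 genes that reached an FPKM of 1 in 3 libraries. All 9 genes passed that filter in every group. The share of all tested genes called was 0.168% for CDH16KO-AngII against AngII, 0.0% for GRPR-AngII against AngII and 0.144% for GRPR-AngII against CDH16KO-AngII, so 0 of 9 is near the background in each. DESeq2 also called 0 of 9 in each, where it called 1.68%, 0.36% and 1.4% of all tested genes in the same order of comparisons. FPKM values below are as deposited, scaled by gene length and library size, while CPM values and fold changes include the TMM scaling. The 2 comparisons against AngII share their AngII libraries.

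**Figure D1:**
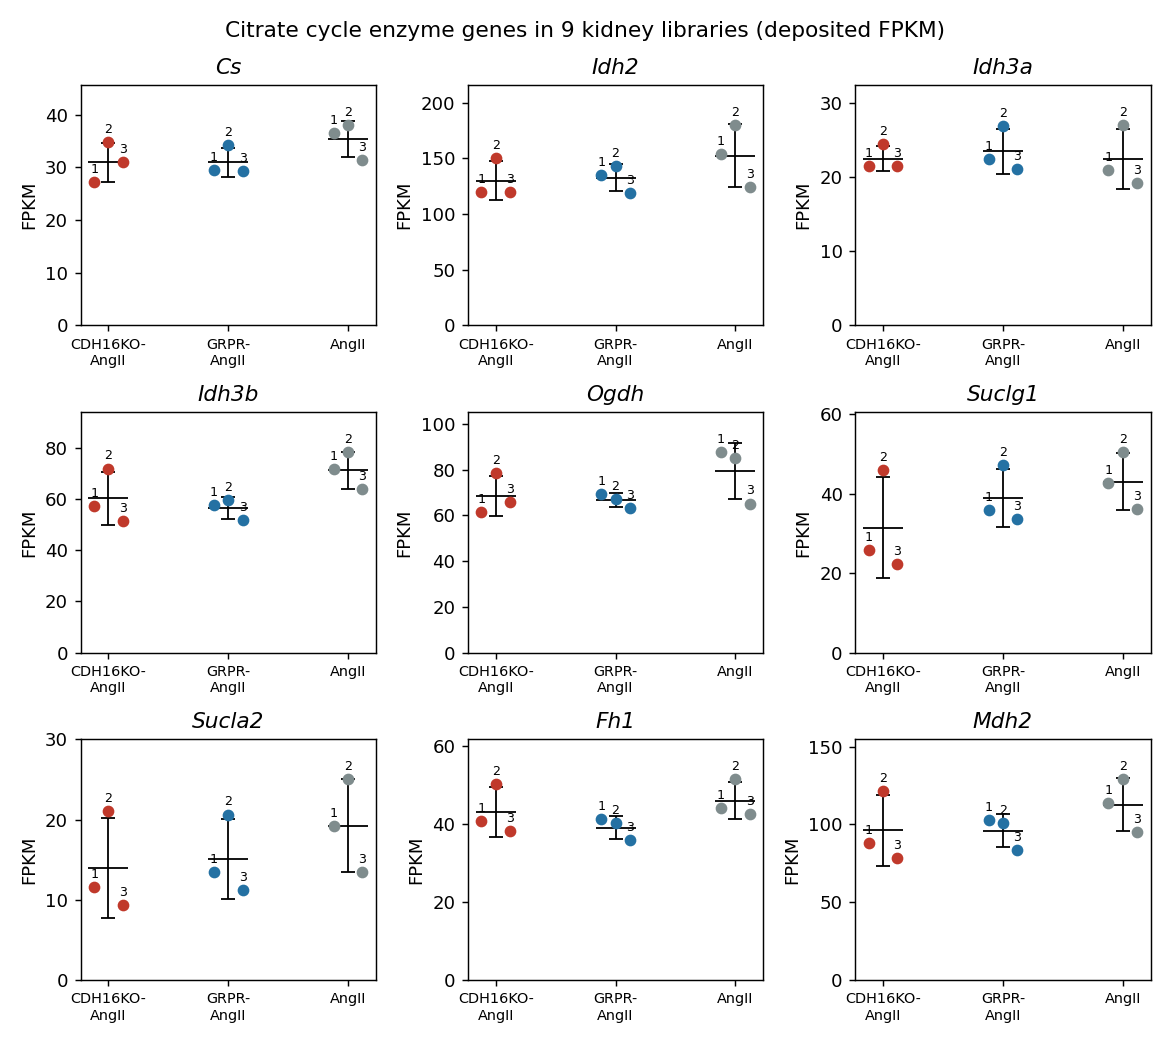
Deposited FPKM (vertical axis, from 0) of each citrate cycle enzyme gene in CDH16KO-AngII, GRPR-AngII and AngII kidneys. Points are libraries with their replicate number, and bars are the mean ± SD (n = 3 per group). The GRPR-AngII libraries lie below the AngII libraries for Idh3b and Fh1, and the groups overlap in the other panels. Library 2 stands highest in all 3 groups for Cs, Idh2, Idh3a, Idh3b, Sucla2 and Suclg1.

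Citrate synthase, encoded by Cs, joins acetyl-CoA to oxaloacetate and is the entry step of the cycle. Cs (chromosome 10, 128337734 to 128362479) stood at 27.2, 34.7 and 30.9 FPKM in CDH16KO-AngII, at 29.5, 34.2 and 29.3 FPKM in GRPR-AngII and at 36.5, 38.03 and 31.5 FPKM in AngII. The highest values of both Cre-positive groups lay above the lowest AngII value, so the groups overlapped. The log2 fold change was −0.16 in CDH16KO-AngII against AngII (95% interval −0.48 to 0.16) and −0.12 in GRPR-AngII against AngII (95% interval −0.44 to 0.20).

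Isocitrate is oxidised in the matrix by 2 kinds of enzyme. Idh2 encodes the NADP-dependent enzyme, a source of matrix NADPH for glutathione reduction, and Idh2 (chromosome 7, 80094846 to 80115392) was the member with the highest FPKM. Idh2 stood at 119.8, 149.99 and 119.8 FPKM in CDH16KO-AngII, at 135, 143 and 119 FPKM in GRPR-AngII and at 154, 179.9 and 124 FPKM in AngII. AngII library 2 was the highest of all. AngII library 3 lay among the libraries of the other groups in FPKM and was the lowest of all in CPM, at 364 against 374 in CDH16KO-AngII library 1. Idh2 had log2 fold changes of −0.20 in CDH16KO-AngII against AngII (95% interval −0.57 to 0.17) and −0.14 in GRPR-AngII against AngII (95% interval −0.51 to 0.23).

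The NAD-dependent isocitrate dehydrogenase is built from a catalytic alpha subunit, encoded by Idh3a, and beta and gamma subunits, encoded by Idh3b and Idh3g. Idh3a (chromosome 9, 54586334 to 54604661) stood at 21.5, 24.5 and 21.5 FPKM in CDH16KO-AngII, at 22.5, 26.95 and 21.1 FPKM in GRPR-AngII and at 21.0, 27.04 and 19.3 FPKM in AngII. It was the only 1 of the 9 genes with a positive log2 fold change in both comparisons against AngII, at 0.04 in CDH16KO-AngII (95% interval −0.29 to 0.37) and 0.13 in GRPR-AngII (95% interval −0.20 to 0.47). The groups overlapped for Idh3a in both.

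Idh3b (chromosome 2, 130279309 to 130284547) stood at 57.3, 72.0 and 51.6 FPKM in CDH16KO-AngII, at 57.9, 59.8 and 51.9 FPKM in GRPR-AngII and at 71.7, 78.4 and 63.8 FPKM in AngII. All GRPR-AngII libraries lay below all AngII libraries, in FPKM and in CPM, while CDH16KO-AngII library 2 lay within the AngII range. Idh3b averaged 238 ± 2.52 CPM in GRPR-AngII kidneys and 287 ± 34.3 in AngII kidneys (SD, n = 3 each). Its log2 fold change there was −0.27 (SE 0.15, 95% interval −0.60 to 0.06, edgeR adjusted p = 0.736), which did not pass the test. Of the 9 genes, Idh3b alone had separate CPM ranges in that comparison, 1 of 9, where 14.0% of all tested genes had separate ranges and 7.2% had them with GRPR-AngII lower. In FPKM, Fh1 was separate and lower as well, 2 of 9, where 13.2% of all tested genes were separate and 9.79% were lower. No member had separate ranges in CDH16KO-AngII against AngII, where 12.2% of tested genes had in CPM and 11.2% in FPKM. None had in GRPR-AngII against CDH16KO-AngII, where 9.96% had in CPM and 9.47% in FPKM. Exons of Idh3b share 5 bases with those of Nop56 on the opposite strand, and the labels do not say whether counting used strand.

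Ogdh encodes the E1 component of the 2-oxoglutarate dehydrogenase complex, the thiamine-dependent step to succinyl-CoA. Ogdh (chromosome 11, 6291633 to 6356642) stood at 61.6, 78.3 and 65.8 FPKM in CDH16KO-AngII, at 69.3, 67.2 and 63.4 FPKM in GRPR-AngII and at 87.6, 85.0 and 65.1 FPKM in AngII. Libraries 1 and 2 of AngII were above all other libraries. AngII library 3 was within the range of the others in FPKM and the lowest of all in CPM, at 403 against 405 in CDH16KO-AngII library 1. The log2 fold change of Ogdh was −0.18 in both comparisons against AngII, with 95% intervals of −0.55 to 0.19 in each.

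Succinyl-CoA ligase makes ATP or GTP at substrate level. Suclg1 encodes the alpha subunit that every form of the enzyme contains, and Sucla2 encodes the beta subunit of the ADP-forming one. These partners varied most among the 9 genes. The coefficient of variation of CPM over the 9 libraries was 31.5% for Sucla2 and 23.4% for Suclg1, against 9.66% to 14.8% for the other 7 genes.

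Suclg1 (chromosome 6, 73248382 to 73276911) stood at 25.9, 45.9 and 22.4 FPKM in CDH16KO-AngII, at 35.8, 47.1 and 33.5 FPKM in GRPR-AngII and at 42.6, 50.4 and 36.0 FPKM in AngII. Libraries 1 and 3 of CDH16KO-AngII were the lowest of all libraries, and CDH16KO-AngII library 2 lay inside the AngII range. In CDH16KO-AngII against AngII the log2 fold change of Suclg1 was −0.43 (SE 0.24, 95% interval −0.97 to 0.10, edgeR adjusted p = 0.643). Without CDH16KO-AngII library 3 this fold change was −0.26 (edgeR adjusted p = 0.963). Without CDH16KO-AngII library 2 it was −0.78 (edgeR adjusted p = 0.0842), the smallest adjusted p of any member under the alternatives run. That library also had the lowest mitochondria-coded share of all, 16.1%, against 23.4% and 26.4% in libraries 1 and 3 of its group. Its proximal tubule markers summed to 14048 CPM, against 11089 and 10575 CPM in those libraries. The part of these measures in the Suclg1 values was not tested.

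Sucla2 (chromosome 14, 73525319 to 73595783) stood at 11.5, 21.1 and 9.32 FPKM in CDH16KO-AngII, at 13.4, 20.6 and 11.2 FPKM in GRPR-AngII and at 19.2, 25.02 and 13.5 FPKM in AngII. The spread within each group was wider than the distance between the groups. Sucla2 had log2 fold changes of −0.44 in CDH16KO-AngII against AngII (95% interval −1.13 to 0.25) and −0.30 in GRPR-AngII against AngII (95% interval −0.99 to 0.39). The first was −0.83 without CDH16KO-AngII library 2 (edgeR adjusted p = 0.165) and −0.22 without AngII library 2 (edgeR adjusted p = 0.956).

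Fumarase, encoded by Fh1 in the mouse, hydrates fumarate to malate. Fh1 (chromosome 1, 175600374 to 175625635) stood at 40.6, 50.2 and 38.2 FPKM in CDH16KO-AngII, at 41.1, 40.2 and 35.8 FPKM in GRPR-AngII and at 44.04, 51.4 and 42.5 FPKM in AngII. The GRPR-AngII libraries were below all AngII libraries in FPKM, and overlapped them in CPM. Fh1 was the steadiest of the 9 genes over the libraries and had log2 fold changes of −0.06 in CDH16KO-AngII against AngII (95% interval −0.37 to 0.24) and −0.17 in GRPR-AngII against AngII (95% interval −0.47 to 0.14).

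Malate dehydrogenase of the matrix, encoded by Mdh2, regenerates oxaloacetate and serves the malate-aspartate shuttle. Mdh2 (chromosome 5, 135778480 to 135790391) stood at 88.1, 122 and 78.6 FPKM in CDH16KO-AngII, at 103, 101 and 83.8 FPKM in GRPR-AngII and at 114, 129 and 95.1 FPKM in AngII. The groups overlapped, and library 3 was the lowest of its group in all 3. The log2 fold change of Mdh2 was −0.20 in CDH16KO-AngII against AngII (95% interval −0.60 to 0.20) and −0.17 in GRPR-AngII against AngII (95% interval −0.57 to 0.24).

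**Figure D2:**
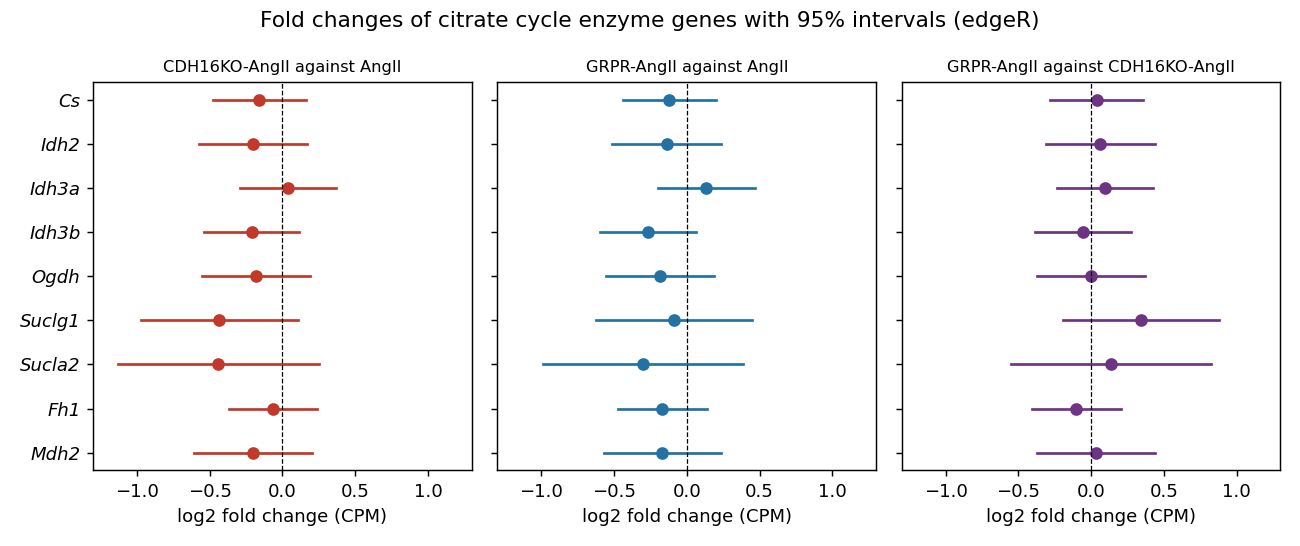
Log2 fold changes of CPM (horizontal axis) for the 9 genes in the 3 comparisons, with points for edgeR estimates and lines for 95% intervals. Every interval contains 0, and the intervals of Sucla2 and Suclg1 are the widest.

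Set side by side, 8 of the 9 genes had a negative log2 fold change in each comparison against AngII, with medians of −0.20 for CDH16KO-AngII and −0.17 for GRPR-AngII. Over all tested genes the medians were 0.01 and −0.01, and 48.1% and 51.04% of values were negative. Levels of the 9 genes went together over the libraries (median Pearson correlation 0.74 over pairs), so they are not 9 separate observations. Both comparisons use the same AngII libraries. Cell type markers also differed in direction. Of 12 proximal tubule markers, 10 were negative and 2 positive in CDH16KO-AngII against AngII (median −0.19). There, 4 had an unadjusted edgeR p under 0.05 in either direction, and 2 had separate CPM ranges above AngII and 2 below. In GRPR-AngII against AngII 5 were negative (median 0.05), 0 had such a p and 0 had separate ranges. All 7 stromal and smooth muscle markers were positive in both comparisons (medians 0.24 and 0.33). Their summed levels were 114 to 197 CPM in CDH16KO-AngII, 124 to 199 in GRPR-AngII and 100.2 to 158 in AngII. Of 8 thick ascending limb and distal convoluted tubule markers, 6 and 4 were positive in the same order (medians 0.22 and 0.11). Of 9 collecting duct markers, 6 and 5 were negative (medians −0.20 and −0.14). Of 5 macrophage and T cell markers tested, 4 were negative in both (medians −0.54 and −0.38). Podocyte and endothelial medians lay between −0.05 and 0.03. No marker of these lists was called, and their part in the member values was not tested. None of the 9 had an unadjusted edgeR p under 0.05 in any comparison. In GRPR-AngII against CDH16KO-AngII, 6 of 9 were positive with a median of 0.04, and Suclg1 was the farthest from 0 with a log2 fold change of 0.34 (95% interval −0.19 to 0.88, edgeR adjusted p = 0.959). The intervals set the size of change these libraries could still hold. For Fh1 in CDH16KO-AngII against AngII the interval runs from 0.775-fold to 1.18-fold, and for Sucla2 from 0.457-fold to 1.19-fold, so the groups are not shown to be alike.

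Within CDH16KO-AngII and within AngII, the 9 genes were high or low together by library. CDH16KO-AngII library 2 was high, with 9 of the 9 genes above their own mean over libraries, as were AngII libraries 1 and 2, with 8 and 9. CDH16KO-AngII libraries 1 and 3 and AngII library 3 were low, with 0 of 9 above. The GRPR-AngII libraries lay between, with 2, 5 and 3 of 9 above. The summed level of the 9 genes was 2079.9, 2654 and 2101 CPM in CDH16KO-AngII kidneys, 2352, 2388 and 2313 in GRPR-AngII kidneys and 2767, 2939 and 2129 in AngII kidneys. Library 2 stood apart in CDH16KO-AngII and library 3 in AngII, and the GRPR-AngII sums were close together. Some sums of genes outside the set were also highest in CDH16KO-AngII library 2 and lowest in AngII library 3 within these groups. Pyruvate entry genes summed to 1469, 1977 and 1357 CPM in CDH16KO-AngII, and proximal tubule markers to 11089, 14048 and 10575. Thick ascending limb and distal convoluted tubule markers were instead lowest in library 2 within CDH16KO-AngII, at 5401, 4204 and 5822 CPM. Within AngII these markers were lowest in library 3, as the members were, at 5577, 5605 and 3877 CPM. In CDH16KO-AngII the high library 2 had the lowest mitochondria-coded share, 16.1%, against 23.4% and 26.4% in the low libraries 1 and 3. In AngII the low library 3 had 17.4%, and the high libraries 1 and 2 had 21.5% and 17.2%. The part of that share in the member levels was not tested.

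**Figure D3:**
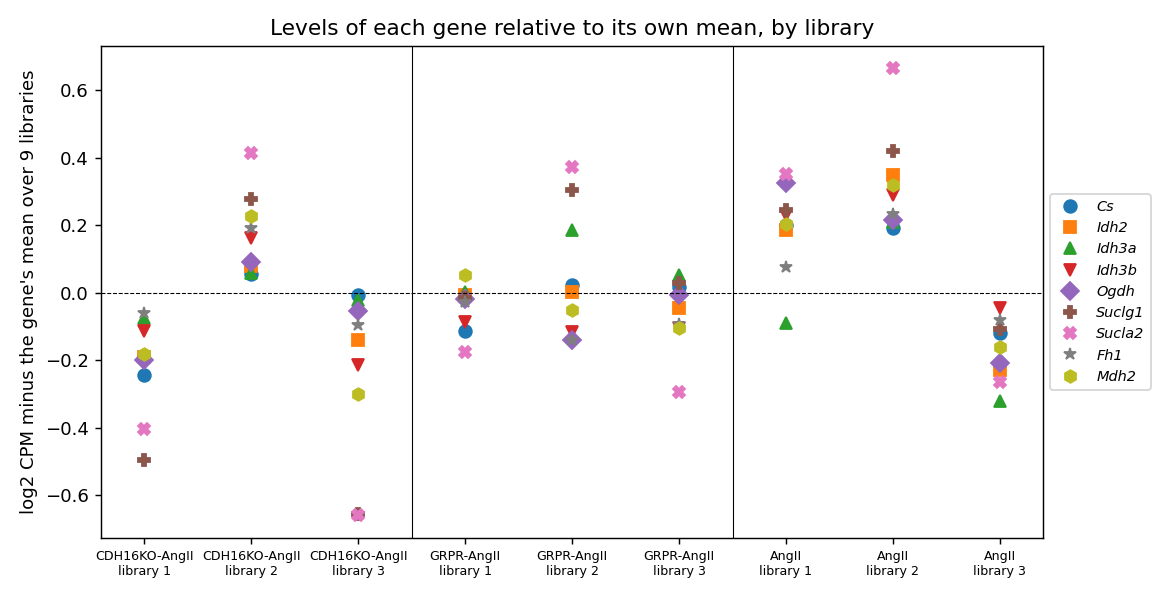
Log2 CPM of each gene minus its own mean over the 9 libraries (vertical axis), by library, with a symbol and colour per gene. All symbols lie above 0 in CDH16KO-AngII library 2 and AngII library 2 and below 0 in CDH16KO-AngII libraries 1 and 3 and AngII library 3, and Sucla2 runs from −0.66 to 0.66.

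Over the 9 libraries, the log2 CPM of the genes went together. Of the 36 pairs of members, 83.3% had a Pearson correlation above 0.5, with a median of 0.74. Over all pairs of tested genes 13.6% were above 0.5 and the median was near 0. Sucla2 and Suclg1 were the closest pair at 0.93, and Idh3a was in the 7 lowest pairs, with 0.22 to its partner Idh3b. All these values share the same 9 libraries and are a description. By the same measure, the genes whose log2 CPM was most like the mean of the 9 were Uqcrc2 (0.99), Dld (0.98), Dnajc25 (0.98), Slc25a5 (0.97) and Poldip2 (0.97). Uqcrc2 encodes a core subunit of respiratory complex III, Dld the E3 component shared by the 2-oxoglutarate and pyruvate dehydrogenase complexes, and Slc25a5 an adenine nucleotide carrier of the inner membrane. Uqcrc2 averaged 246 ± 55.9 CPM in CDH16KO-AngII kidneys, 262 ± 19.4 in GRPR-AngII kidneys and 299.7 ± 55.6 in AngII kidneys (SD, n = 3 each).

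Ratios between partner subunits do not depend on library scaling. The ratio of Idh3a to Idh3b counts was 0.556, 0.504 and 0.618 in CDH16KO-AngII, 0.576, 0.668 and 0.604 in GRPR-AngII and 0.434, 0.511 and 0.447 in AngII. Every GRPR-AngII library lay above every AngII library, and CDH16KO-AngII library 2 fell just inside the AngII range. The difference in GRPR-AngII against AngII was 0.41 on the log2 scale (two-sided exact permutation test, p = 0.1, adjusted p = 0.533 over the 24 ratio tests made), and 0.1 is the lowest p possible with 3 libraries a group. In CDH16KO-AngII against AngII it was 0.27 (two-sided exact permutation p = 0.2, adjusted p = 0.533). The ratio of Idh3g to Idh3b was also higher in every GRPR-AngII library, at 0.928, 0.984 and 1.14 against 0.919, 0.848 and 0.868 in AngII (two-sided exact permutation p = 0.1, adjusted p = 0.533). This ratio and Idh3a to Idh3b share Idh3b as denominator, and Idh3b itself was lower in every GRPR-AngII library than in AngII. The 2 ratios are therefore not separate results. Idh3a against Idh3g did not separate the groups. The ratios were chosen after the member values were seen, and none passed the threshold.

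**Figure D4:**
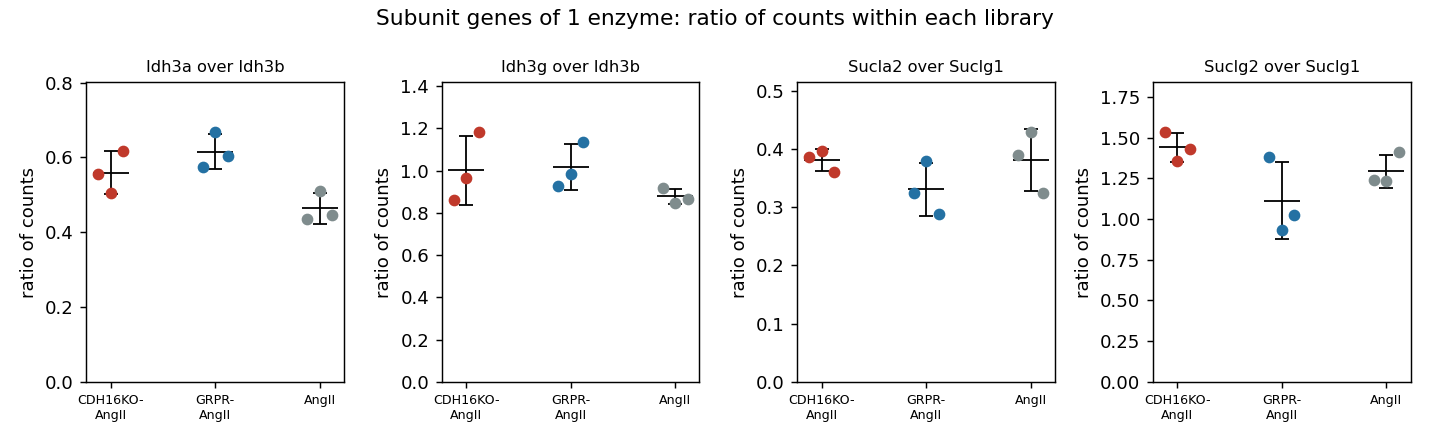
Ratio of counts between partner subunit genes within each library (vertical axis, from 0) for CDH16KO-AngII, GRPR-AngII and AngII, with points for libraries and bars for the mean ± SD (n = 3 per group). The Idh3a to Idh3b ratio is 0.576 to 0.668 in GRPR-AngII, above all AngII libraries at 0.434 to 0.511.

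In succinyl-CoA ligase, Sucla2 followed Suclg1. Their count ratio was 0.386, 0.397 and 0.360 in CDH16KO-AngII, 0.324, 0.379 and 0.289 in GRPR-AngII and 0.389, 0.429 and 0.324 in AngII. The groups overlapped, and a ratio that varied from 0.289 to 0.429 stood beside a 2.5-fold range of Sucla2 CPM over the 9 libraries. Suclg2, the beta subunit of the GDP-forming enzyme, stood to Suclg1 at 1.44 ± 0.0890 in CDH16KO-AngII, 1.11 ± 0.238 in GRPR-AngII and 1.29 ± 0.10 in AngII (SD, n = 3 each). GRPR-AngII library 1 lay within the CDH16KO-AngII range (log2 difference −0.39 for GRPR-AngII against CDH16KO-AngII, two-sided exact permutation p = 0.2, adjusted p = 0.533). For the 2-oxoglutarate dehydrogenase complex, Ogdh to Dlst was 1.99 ± 0.170 in CDH16KO-AngII, 1.68 ± 0.225 in GRPR-AngII and 1.82 ± 0.156 in AngII (SD, n = 3 each), with overlapping groups.

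The order of the levels between genes depended on the length used. The length behind the deposited FPKM followed the union of all annotated exons. For genes with an FPKM of at least 10 and at least 100 counts, the length implied by count and FPKM was a constant multiple of that union, within 5%, for 99.3% to 99.4% of genes per library. The union was 1.29 times the length of the principal transcript for Fh1, 2.45 times for Mdh2 and 3.04 times for Suclg1. In FPKM the order was Idh2, Mdh2, Ogdh, Idh3b, Fh1, Suclg1, Cs, Idh3a and Sucla2, with means over 9 libraries of 138 FPKM for Idh2 and 16.1 FPKM for Sucla2. Suclg1 was above Cs in 7 of 9 libraries and Fh1 above Suclg1 in 8 of 9, so these neighbours were not separated, while each other neighbour pair kept its order in 9 of 9.

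Per kilobase of the principal transcript, Mdh2 came first, at 298 CPM per kilobase on average, above Idh2 at 246 in 9 of 9 libraries. Suclg1 moved from the sixth to the fourth place, at 137 CPM per kilobase, above Ogdh at 114 in 7 of 9 libraries. Fh1 moved to the seventh place, at 65.9 CPM per kilobase, below Cs at 77.0. Sucla2 was lowest on both scales, at 34.4 CPM per kilobase, and its partner Suclg1 was above it in both. This length scale was chosen after seeing the files.

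**Figure D5:**
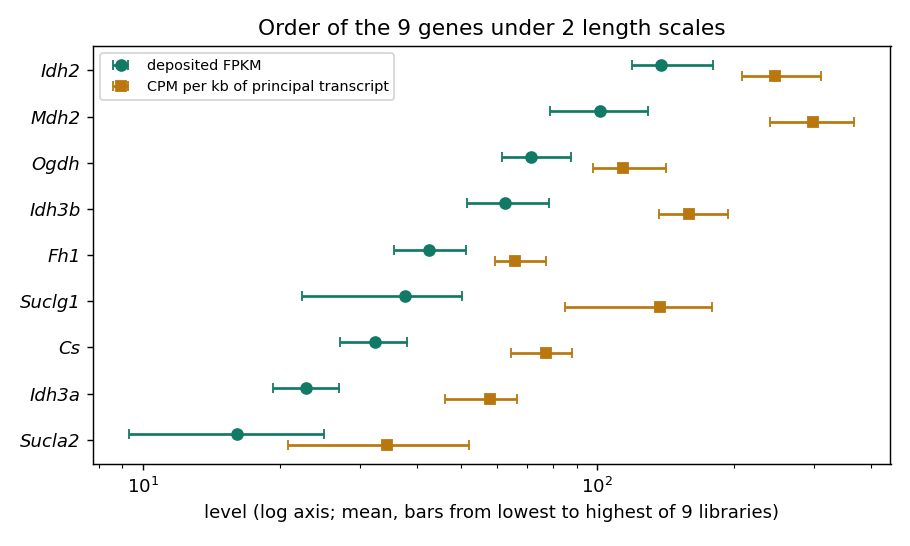
Mean level of each gene over 9 libraries (horizontal log axis, bars from the lowest to the highest library) as deposited FPKM and as CPM per kilobase of the principal transcript. Idh2 leads in FPKM and Mdh2 per kilobase of the principal transcript, and Sucla2 is lowest on both.

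The other genes of the cycle were taken from a fixed list of 9. None was called, and all 9 had negative log2 fold changes in CDH16KO-AngII against AngII, with a median of −0.28. In GRPR-AngII against AngII 8 of 9 were negative, with a median of −0.24. Sdha, the flavoprotein subunit of succinate dehydrogenase, averaged 219 ± 102 CPM in CDH16KO-AngII kidneys and 433 ± 114 in AngII kidneys (SD, n = 3 each), a log2 fold change of −0.99 (SE 0.31, 95% interval −1.68 to −0.29, edgeR adjusted p = 0.403). The unadjusted edgeR p of Sdha was 0.00979. The groups overlapped for Sdha, with CDH16KO-AngII library 2 at 336 CPM and AngII library 3 at 305 CPM. Further values in that comparison were −0.49 for Sdhd, −0.34 for Dld, −0.28 for Dlst, −0.28 for Suclg2, −0.09 for Sdhc, −0.06 for Sdhb and −0.03 for Idh3g.

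Genes that bring pyruvate into the cycle gave no call either. Of 14 listed, 12 were tested, and 10 of these were negative in CDH16KO-AngII against AngII, with a median of −0.20. The member of smallest p was Pdk4, a kinase that inhibits pyruvate dehydrogenase. Pdk4 stood at 15.5, 9.84 and 11.7 CPM in CDH16KO-AngII kidneys, at 33.7, 24.2 and 15.2 in GRPR-AngII kidneys and at 22.6, 23.5 and 31.2 in AngII kidneys. All CDH16KO-AngII libraries were below all AngII libraries, while GRPR-AngII overlapped both groups. The log2 fold change of Pdk4 was −1.06 in CDH16KO-AngII against AngII (SE 0.28, edgeR adjusted p = 0.267). Between the Cre-positive groups, GRPR-AngII over CDH16KO-AngII, it was 0.98 (SE 0.28, edgeR adjusted p = 0.345). The phosphatase gene Pdp2 and the E1 beta gene Pdhb had −0.41 and −0.31 in CDH16KO-AngII against AngII.

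Cytosolic counterparts and carriers were tested for 14 of 15 listed genes, with none called. In CDH16KO-AngII against AngII 12 of the 14 were negative and 2 positive, with a median of −0.29. The 3 of smallest p include both positive genes, Me3 and Slc25a12. Me3, a mitochondrial malic enzyme, averaged 55.3 ± 12.9 CPM in CDH16KO-AngII kidneys and 37.8 ± 7.31 in AngII kidneys (SD, n = 3 each), a log2 fold change of 0.55 (SE 0.21, edgeR adjusted p = 0.533). Aco1, the cytosolic aconitase that also acts as an iron regulatory protein, had −0.45 (SE 0.20, edgeR adjusted p = 0.588). The aspartate-glutamate carrier gene Slc25a12 had 0.26 (SE 0.13, edgeR adjusted p = 0.613).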

How the data were processed

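The members and gene lists were chosen with earlier results of these data known. The labels' protocols name a SMARTER mRNA-Seq kit, and the submitters' processing notes name GRCm38 and mm10. No aligner, counter or strand setting is named. Per the file headers, the authors deposited FPKM and a count for each gene and library. The deposited counts are whole numbers, handled as estimated counts (expected counts) since rounding cannot be told from counting. One edgeR 4.0.16 fit (R 4.3.3, TMM, a coefficient per group, no block) used all 9 libraries. The filter was FPKM of 1 or more in 3 or more libraries, and each SE was derived from the F statistic. The test was checked on simulated counts. For CDH16KO-AngII against AngII it recovered 5.97% of genes set at 1.5-fold, 40.3% at 2-fold and 87.9% at 4-fold. For GRPR-AngII against AngII it recovered 2.99%, 43.3% and 86.4% in the same order. False calls were 4 of 93 and 1 of 89. Alternatives used DESeq2 1.42.0 and limma 3.58.1. Genes named were the members, the other cycle genes (1 is not reported here), up to 3 of smallest p per further list in CDH16KO-AngII against AngII, and the 5 most alike. Replicate libraries differed by far more than sampling noise (chi-square per gene 74.2 or more), and CDH16KO-AngII library 2 stood apart (265 and 366 from the others of its group). BLAST+ 2.17.0 found no other gene's transcript at 95% identity to a member. Coordinates are as deposited.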

Additional observations from a re-analysis of the deposited data

How the results depend on the processing

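The 9 genes gave 0 calls in each comparison under all 18 alternatives (filters, scalings, pseudocounts, tools, no mitochondria-coded genes, replicate block, 2 groups only, and 9 fits without 1 library). With all libraries kept, 238 of 243 member fold changes held their direction. The 5 others were Ogdh in GRPR-AngII against CDH16KO-AngII, −0.0040 in the report and 0.0076 with FPKM of 0.1 as the filter, 0.0234 with no filter, 0.0040 with DESeq2 size factors, 0.0040 with DESeq2 and 0.0104 without mitochondria-coded genes. Counts over all genes moved more. DESeq2 called 210 genes in CDH16KO-AngII against AngII, against 21 with edgeR, 45 in GRPR-AngII against AngII, against 0, and 175 in GRPR-AngII against CDH16KO-AngII, against 18. The last was 41 with no filter and 9 with only the 2 groups compared. Leaving out 1 library gave 0 to 42, 0 to 2 and 0 to 50 calls in these comparisons. The causes were not tested.

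Leaving out 1 library reversed 12 of 243 member fold changes. In CDH16KO-AngII against AngII, Idh3a ranged from −0.0787 to 0.1886 and Fh1 from −0.1598 to 0.0181. In GRPR-AngII against AngII, Suclg1 ranged from −0.2212 to 0.0334. In GRPR-AngII against CDH16KO-AngII, Cs ranged from −0.0435 to 0.0983, Idh3b from −0.1326 to 0.0605, Ogdh from −0.0695 to 0.072, Sucla2 from −0.0927 to 0.5233 and Mdh2 from −0.0699 to 0.2068. Many other values moved by over 1.5 times without reversing, and some are given here. In CDH16KO-AngII against AngII, Cs ranged from −0.26 to −0.07, Idh2 from −0.35 to −0.07, Idh3b from −0.33 to −0.13 and Ogdh from −0.32 to −0.07. In GRPR-AngII against AngII, Cs ranged from −0.22 to −0.07, Ogdh from −0.33 to −0.07, Mdh2 from −0.29 to −0.07 and Idh3a from 0.02 to 0.28. In GRPR-AngII against AngII, Sucla2 ranged from −0.53 to −0.08 and Idh2 from −0.29 to −0.01, and in CDH16KO-AngII against AngII, Mdh2 ranged from −0.37 to −0.10, Sucla2 from −0.83 to −0.22 and Suclg1 from −0.78 to −0.26. Among log2 count ratios, Idh3a over Idh3g ranged from −0.0113 to 0.1863 and Sucla2 over Suclg1 from −0.1015 to 0.1005 in CDH16KO-AngII against AngII. In GRPR-AngII against AngII, Sucla2 over Suclg2 ranged from −0.1869 to 0.2086 and Ogdh over Dld from −0.0544 to 0.1472. In GRPR-AngII against CDH16KO-AngII, Idh3g over Idh3b ranged from −0.0749 to 0.1536, Sucla2 over Suclg2 from −0.0421 to 0.3535 and Ogdh over Dld from −0.2703 to 0.0174.

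With the replicate number as a block, 26, 0 and 13 genes were called and no member, and Sucla2 and Suclg1 in CDH16KO-AngII against AngII had −0.47 and −0.47 (edgeR adjusted p = 0.229 and 0.276). The SE of Sucla2 there was 0.14 with the block and 0.31 without. Deviations of same-numbered libraries correlated at −0.13 to 0.32, not all above 0.1, so the numbers were not taken to pair the libraries. That 7 of 9 libraries correlated best with one of their own number is a hint of pairing from the data, not from the design.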
